A study of Homo sapiens with 15 samples.

Results

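The 9 genes of antigen presentation on major histocompatibility complex (MHC) class I described here were looked up by symbol in the expression tables of oral epithelial cells: HLA-B, HLA-C, HLA-E, B2M, TAP1, TAP2, TAPBP, PSMB8 and PSMB9. Of these 9 members, 2 matched a row, HLA-B (ENSG00000234745, Entrez gene 3106) and B2M (ENSG00000166710, Entrez gene 567), of the 12995 genes listed. The other 7 matched no row used here and were not analysed here. Most of the members could therefore not be followed. Lists of other genes of the pathway (the proteasome, peptide loading, transcription and interferon signalling) are described beside HLA-B and B2M, and do not stand in for the missing members.

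The 15 libraries fell into 5 groups of 3. OKF6 is a normal oral epithelial line with the wild type genotype, grown in keratinocyte serum-free medium. SCC25 and SCC15 are oral cancer lines, the former grown in that same medium and the latter in DMEM with serum, so that line and medium cannot be told apart in any comparison with SCC15. In the groups SCC25 -YBX1 and SCC15 -YBX1 the gene YBX1 was targeted with Cas9 and a guide RNA switched on by doxycycline (1 µg/mL, 3 days), which the labels call a knockout and which is called a knockdown here, after the study's account of its results. The groups SCC25 +YBX1 and SCC15 +YBX1 were cells of the same sorted pools, not single clones. They carried Cas9 and the guide construct and were given no doxycycline. These +YBX1 libraries also stand for the 2 cancer lines in the comparisons with OKF6, which carried no such construct, so the line and the construct cannot be told apart there either. No group received doxycycline without the YBX1 guide, so doxycycline, Cas9 cutting and loss of YBX1 cannot be told apart in the knockdown comparisons.

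MHC class I molecules show short peptides from inside the cell to CD8 T cells. The proteasome cuts proteins into peptides, the TAP transporter carries them into the endoplasmic reticulum, and tapasin (TAPBP) with other chaperones loads them into a groove formed by a heavy chain, such as HLA-B, paired with the invariant light chain beta-2-microglobulin (B2M). Interferons raise most of these genes through IRF factors and the transactivator NLRC5, and epithelial tumours often carry little class I. YBX1 was first named for binding the Y box, an inverted CCAAT sequence, in promoters of MHC class II genes.

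B2M lies at chr15:44711358-44718851 on the plus strand and HLA-B at chr6:31353872-31367067 on the minus strand (GRCh38, GENCODE release 44). The 250 bases before the start of each gene are shown for both members, and for PSME2 and PSMB10 because they are class I genes of the proteasome that behaved differently in the comparisons below. They are from the RefSeq promoter table (build GRCh38.p14) and read 5′ to 3′ on the strand of the gene. The start meant here is the RefSeq one, which for B2M and HLA-B lies inside the GENCODE span given above. Capitals mark CCAAT or its reverse complement ATTGG, and the core letters of the interferon-stimulated response element, which is TTTC and TTTC parted by 2 bases of any kind, or its reverse complement with GAAA. Both strands were searched for exact matches alone, so a variant of these letters is not marked.
B2M, chr15:44711267-44711516: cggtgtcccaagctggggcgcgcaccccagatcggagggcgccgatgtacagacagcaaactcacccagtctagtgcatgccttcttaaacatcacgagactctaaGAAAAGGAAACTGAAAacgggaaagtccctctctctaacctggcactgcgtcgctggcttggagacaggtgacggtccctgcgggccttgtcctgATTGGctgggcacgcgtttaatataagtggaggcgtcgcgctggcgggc
HLA-B, chr6:31357180-31357429: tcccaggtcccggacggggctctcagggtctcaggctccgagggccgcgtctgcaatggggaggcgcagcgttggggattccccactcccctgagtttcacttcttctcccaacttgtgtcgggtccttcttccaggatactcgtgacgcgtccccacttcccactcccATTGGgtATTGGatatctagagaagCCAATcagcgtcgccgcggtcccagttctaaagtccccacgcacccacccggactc
PSME2, chr14:24146611-24146860: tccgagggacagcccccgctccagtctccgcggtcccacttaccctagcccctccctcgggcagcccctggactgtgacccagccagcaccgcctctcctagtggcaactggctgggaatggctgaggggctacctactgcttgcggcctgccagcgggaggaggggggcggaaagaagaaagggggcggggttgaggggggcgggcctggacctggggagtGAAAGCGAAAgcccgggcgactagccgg
PSMB10, chr16:67936851-67937100: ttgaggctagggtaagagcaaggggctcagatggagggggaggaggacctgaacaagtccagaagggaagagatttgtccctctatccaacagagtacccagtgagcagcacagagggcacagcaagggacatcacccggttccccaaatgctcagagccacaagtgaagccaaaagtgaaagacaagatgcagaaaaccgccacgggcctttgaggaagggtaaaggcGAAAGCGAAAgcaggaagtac
In the B2M window the response element core was found at 144 and again at 138 bases before the start, the 2 matches overlapping, and ATTGG at 49. In the HLA-B window CCAAT or ATTGG was found at 81, 74 and 56 bases before the start, and the letters of the response element core were not in this window. PSME2 had a core match at 28 bases and PSMB10 at 21 bases before the start. Of the 8 members with an entry in the promoter table, 4 held the response element core and 5 held CCAAT, where 3.07% and 33% of all 27305 promoters of this length did. The CCAAT matches of TAP1 and PSMB9, at 249 and 243 bases before their starts, are the same bases on opposite strands, counted for both genes. The core of the gamma-activated site, TTCNNNGAA, was in 0 of the 8 and in 6.78% of all promoters. The member without an entry was HLA-E.

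The values are log2 CPM (CPM, reads scaled to a common library size, with 0.5 read added) from libraries of the 3′ ends of mRNA. Between 4075290 and 6118501 reads were counted per library, and 1 read was worth 0.138 to 0.226 CPM. The summed level of 8 keratinocyte markers was 24775 to 31960 CPM in OKF6 and 12276 to 20661 CPM in SCC25 +YBX1, but 90.4 to 123 CPM in SCC15 +YBX1, in which TP63 had 3 reads or fewer in every library. Of 8 fibroblast or mesenchymal markers 5 matched, with a summed level of 703 to 1691 CPM in OKF6, 405 to 427 CPM in SCC15 +YBX1 and 2455 to 3230 CPM in SCC25 +YBX1. The sum was carried by FN1 and VIM, and 2 of the 5 went the other way and were called higher in SCC15 than in SCC25, CDH2 (35.5 to 54.5 against 8.67 to 14.1 CPM) and ZEB1 (13.7 to 22.2 against 1.38 to 1.66 CPM). The part of these differences between the lines in the results below was not tested. Of 8 leukocyte markers 3 matched a row, with a summed level of 3.08 to 10.3 CPM over the 15 libraries, and PTPRC was not among them. None of the 4 endothelial markers matched. In bulk RNA, fewer cells expressing a gene and less of its RNA per cell cannot be told apart.

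B2M was high in SCC25, intermediate in OKF6 and low in SCC15. In OKF6 its level was 9.76, 9.06 and 9.03 log2 CPM in replicates 1 to 3. In SCC15 +YBX1 it was 7.49, 7.70 and 7.91 log2 CPM. In SCC25 +YBX1 it was 10.34, 10.51 and 10.55 log2 CPM. The 3 groups did not overlap, and the spread within OKF6 came mostly from replicate 1, which was higher than the others. The group means were 640 ± 194 CPM (SD, n = 3) in OKF6, 209 ± 30.3 CPM in SCC15 and 1419 ± 108 CPM in SCC25.

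The test of these differences was limma across all 12995 genes, two-sided, with Benjamini-Hochberg adjustment and a threshold of 0.05. B2M was lower in SCC15 than in SCC25 by a log2 change of -2.77 (SE 0.23, adjusted p = 4.50e-06, limma). Against OKF6, B2M was lower in SCC15 by a log2 change of -1.58 (SE 0.23, adjusted p = 0.000199, limma), which is 0.333 of the OKF6 level. SCC25 lay above OKF6 by 1.19 on the log2 scale (SE 0.23, adjusted p = 0.00356, limma), a 2.28-fold difference. Both comparisons with OKF6 share its 3 libraries. Groups lay apart in this way for 66.6% of all genes between SCC15 and SCC25, for 54.4% between SCC15 and OKF6 and for 43.3% between SCC25 and OKF6.

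HLA-B, the heavy chain with a row, had 1 read or none in every library of OKF6 and SCC15 +YBX1. OKF6 had 1, 0 and 0 reads and SCC15 +YBX1 had 1, 0 and 1. SCC25 +YBX1 had 13, 10 and 9 reads, or 2.44, 1.97 and 1.87 CPM. Every SCC25 library was thus above every library of the other lines, yet the SCC25 level rested on 32 reads in all. Summed over the group, the ratio of SCC25 to OKF6 was 32.8 (95% counting interval 5.48 to 1335, exact), and that of SCC25 to SCC15 was 18.9 (4.81 to 162). These intervals cover counting error alone. In the fit, which depends on the 0.5 read added, HLA-B was lower in SCC15 than in SCC25 (log2 change -3.64, SE 0.63, adjusted p = 0.000842, limma) and higher in SCC25 than in OKF6 (3.96, SE 0.63, adjusted p = 0.00111, limma). Between SCC15 and OKF6, with 2 reads against 1 in all, no difference was detectable at this depth.

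Both matched members were thus called lower in SCC15 than in SCC25, where 43.6% of all genes were called, 20.0% higher and 23.6% lower. Both were also called higher in SCC25 than in OKF6, where 30.2% of all genes were called, 18.9% higher and 11.3% lower. Of the calls in that comparison 62.5% were higher, and 52.2% under quantile normalization. In SCC15 against OKF6, B2M was called lower, where 50.3% of all genes were called, 26.9% higher and 23.4% lower. With 2 members, these counts say little beyond the values of each gene. The deposited values had been filtered by expression, by a rule not given in the sources used here. No OKF6 or SCC15 library had more than 3 HLA-B reads, so HLA-B may have its row through SCC25 alone. Its calls between SCC25 and the other lines are then not independent of its having a row.

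**Figure D1:**
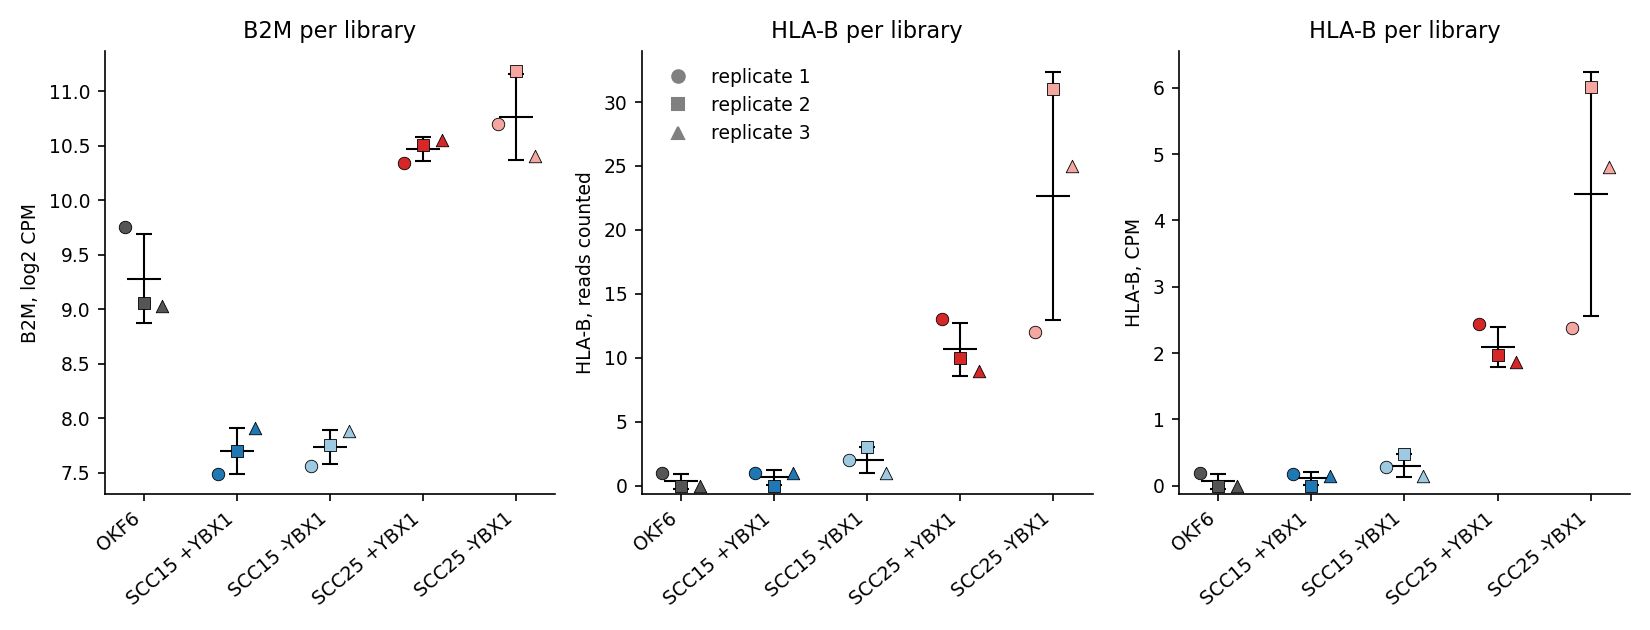
B2M in log2 CPM (left) and HLA-B in reads counted (middle) and CPM (right) in each of the 15 libraries, by group, with the mean and SD of each group as bars. SCC25 libraries are highest for both genes, SCC15 libraries lowest for B2M, and HLA-B does not exceed 3 reads in any OKF6 or SCC15 library.

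The 7 members without a row lie, like HLA-B, in the MHC region of chromosome 6, where few genes had a row at all. From the first to the last member on chromosome 6 (chr6:30489509-33314284) 4 of 135 protein-coding genes had one, HLA-B, HLA-DRB1, HLA-DQB1 and CSNK2B. The hg38 sequence used here holds 261 alternate contigs, among them other haplotypes of the MHC, and a read that matches several contigs equally well can be left uncounted. Pieces of 75 bases, the length of the reads, were therefore mapped, starting 5 bases apart along the final 500 bases of the canonical transcript of each gene, to this sequence. Of the 8 members on chromosome 6, 7 had all their pieces matched in full on an alternate contig as well, and HLA-C had 78.9% of them. B2M, on chromosome 15, also had 82.6% of its 86 pieces on an alternate contig.

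Across chromosome 6, 522 of 859 coding genes with no such piece had a row (60.8%), and 6 of 163 genes with all pieces so matched did (3.68%). Over the whole genome the shares were 62.3% of 18945 genes and 31.6% of 659 genes. HLA-DQB1, which has a row, had 0 of its 86 pieces on an alternate contig, and HLA-DRB1 had 15% of 60. Other genes went the other way. HLA-DQA1 also had 0 of 86 and had no row. IFI27, IRF7, IFNGR2 and PSMB3 had 100% of their pieces so matched and had a row. Which contigs the authors aligned to is not given in the sources used here. The values were also filtered by expression, so a gene with few reads could lack a row for that reason. The part of the filter or of such matches in the missing rows was not tested. Nor was the part of such matches in the level of HLA-B and B2M. Levels of HLA-B and B2M are for these reasons not read as amounts. The share of reads left uncounted may also differ between lines that carry different haplotypes, which was not tested. Comparisons of HLA-B and B2M between lines therefore hold for the reads counted.

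**Figure D2:**
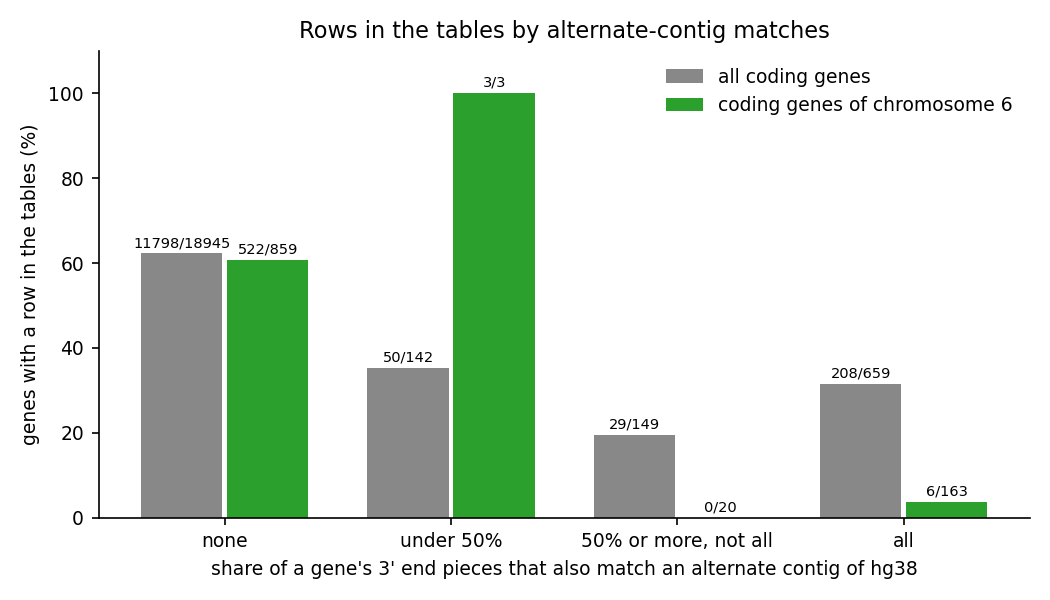
Share of protein-coding genes with a row in the tables (y axis, percent) by the share of their 3′ end pieces that also match an alternate contig of hg38 in full (x axis), for all coding genes and for those of chromosome 6. The counts above the bars are genes with a row over all genes of the class, and on chromosome 6 the share is 60.8% with no such piece and 3.68% with all.

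The regulator of the proteasome linked to class I peptides, PA28, was lowest in SCC15. PSME1 encodes its alpha subunit and PSME2 its beta subunit. PSME1 was at 217, 230 and 171 CPM in SCC25 +YBX1, at 55.0, 49.9 and 51.6 CPM in SCC15 +YBX1 and at 205, 112 and 117 CPM in OKF6. SCC15 lay apart from both other lines, which overlapped each other. The log2 change between SCC15 and SCC25 was -1.97 (SE 0.24, adjusted p = 6.95e-05, limma), and between SCC15 and OKF6 -1.41 (SE 0.24, adjusted p = 0.000583, limma). PSME2 was at 411, 436 and 442 CPM in SCC25, at 68.6, 83.8 and 72.4 CPM in SCC15 and at 300, 112 and 75.9 CPM in OKF6. OKF6 replicate 1 was far above the others of its group, and OKF6 overlapped SCC15. PSME2 was lower in SCC15 than in SCC25 (log2 change -2.52, SE 0.40, adjusted p = 0.000411, limma) and higher in SCC25 than in OKF6 (1.65, SE 0.40, adjusted p = 0.00986, limma).

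In the list of 6 proteasome regulators and inducible subunits, these were the 2 genes called lower in SCC15 than in SCC25, and none was called higher. Over all genes 23.6% were called lower there and 20.0% higher, and with 6 genes this count says little about the list. The median log2 change of the list was -0.31, beside -0.01 for all genes. PSME4, an alternative proteasome activator, was lower in SCC15 than in OKF6 (log2 change -1.04, adjusted p = 0.00787, limma). PSMB10, the inducible catalytic subunit that replaces PSMB7 in the immunoproteasome, had a log2 change of 0.30 between SCC15 and SCC25 (adjusted p = 0.464, limma). The inducible subunits PSMB8 and PSMB9 are members without a row.

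Genes of the constitutive core of the proteasome that passed the test against OKF6 were higher in the cancer lines. Of its 14 genes, 8 were called higher and none lower in SCC25 than in OKF6, where 18.9% of all genes were called higher. Against OKF6, SCC15 had 5 called higher and none lower, with 26.9% of all genes called higher. Between the cancer lines 5 were called lower in SCC15 and none higher, beside 23.6% of all genes called lower and 20.0% higher. Among the 5 were PSMB7 (log2 change -1.65, adjusted p = 0.00295, limma), PSMA6 (-1.45, adjusted p = 5.69e-05) and PSMB6 (-0.99, adjusted p = 0.0197). PSMB4 was higher in SCC25 than in OKF6 by 1.69 and in SCC15 than in OKF6 by 2.02 on the log2 scale, with adjusted p = 0.000802 and 6.57e-05 (limma).

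The level of PSMB10 relative to PSMB7 within each library does not depend on the scaling of libraries. As log2 CPM of PSMB10 minus that of PSMB7 it was -4.13, -2.55 and -2.74 in OKF6, -3.23, -3.58 and -2.75 in SCC15 +YBX1, and -4.74, -4.98 and -5.69 in SCC25 +YBX1. SCC25 lay below both other lines in every library. The difference between SCC15 and SCC25 was 1.95 and that between SCC25 and OKF6 was -1.99, both with p = 0.1 (exact permutation test, two-sided, the smallest p that 3 against 3 allows) and 0.25 after adjustment over 5 comparisons. PSMB10 itself was not called in either comparison, and PSMB7 was called in both. For the knockdown the differences were -0.11 in SCC25 (exact permutation p = 1) and 0.24 in SCC15 (exact permutation p = 0.6).

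**Figure D3:**
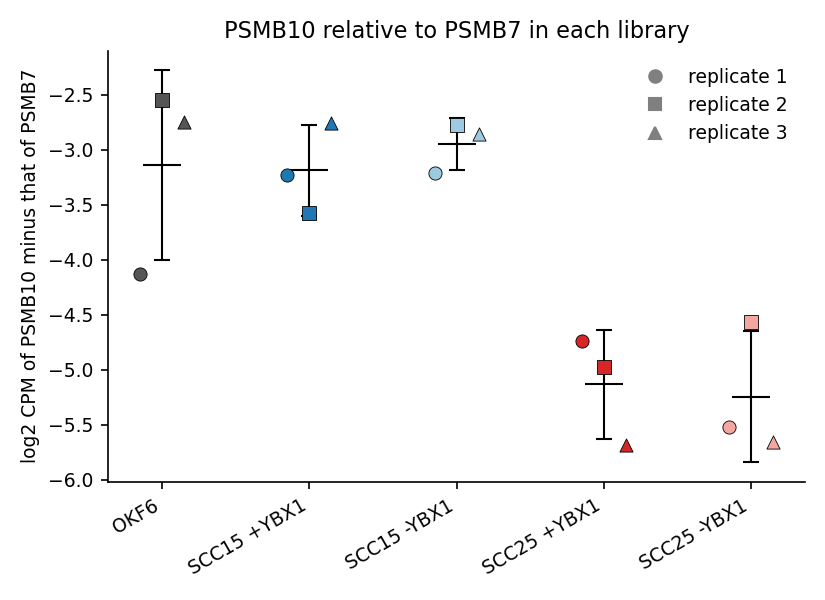
Log2 CPM of PSMB10 minus that of PSMB7 in each library (points), with the mean and SD of each group (bars, n = 3). The group means are -3.14 in OKF6, -3.19 and -2.95 in SCC15 and -5.13 and -5.24 in SCC25, without and with knockdown of YBX1.

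Of 12 genes of peptide trimming and loading in the endoplasmic reticulum, 1 was called higher and 3 lower in SCC15 than in SCC25, with a median log2 change of -0.57. This count is near the share of all genes called (20.0% higher and 23.6% lower) and is not a result about the list. Against OKF6, 1 was called higher and 3 lower in SCC15, and 2 higher and none lower in SCC25. The shares of all genes were 26.9% and 23.4% in SCC15 and 18.9% and 11.3% in SCC25. These counts are not read as a result about the list either. TAPBPL, the tapasin-related editor of class I peptides, was at 41.3, 40.2 and 42.2 CPM in SCC25, at 52.7, 14.9 and 9.44 CPM in OKF6 and at 0, 5 and 0 reads in SCC15. It was near absent in SCC15 alone (adjusted p = 5.20e-05 against SCC25 and 0.000117 against OKF6, limma). ERAP1, which trims peptides to length, was at 18.2, 21.1 and 13.7 CPM in SCC25, at 41.8, 7.67 and 21.1 CPM in OKF6 and at 2.91, 3.37 and 3.85 CPM in SCC15. SCC15 was below both (log2 change -2.35, adjusted p = 0.00469 against SCC25, and -2.47, adjusted p = 0.00282 against OKF6, limma). ERAP2, a second trimming peptidase, was lower in SCC15 than in OKF6 (-2.89, adjusted p = 0.0027, limma) on 3, 1 and 2 reads in SCC15.

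Of the 12 genes, 11 had a negative change between SCC15 and SCC25, and CANX was the exception. CANX, the membrane lectin calnexin that folds new heavy chains, was higher in SCC15 than in SCC25 (log2 change 0.91, adjusted p = 0.0116, limma) and than in OKF6 (1.24, adjusted p = 0.00155, limma). HSPA5, a chaperone of the whole secretory pathway, was lower in SCC15 than in SCC25 (-0.81, adjusted p = 0.0305, limma). CALR, the soluble lectin calreticulin of the loading complex, was higher in SCC25 than in OKF6 (1.13, adjusted p = 0.01, limma), and so was HM13, a signal peptide peptidase (0.98, adjusted p = 0.00981, limma). Of 6 cytosolic peptidases, THOP1 and NPEPPS were called higher in SCC15 than in SCC25 (log2 change 1.03 and 0.97) and none lower. Over all genes 20.0% were called higher there and 23.6% lower, and with 6 genes this count says little about the list. THOP1 degrades peptides in the cytosol.

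Among 13 transcription factors and cofactors of class I genes, 2 were called higher and 7 lower in SCC15 than in SCC25, beside 20.0% and 23.6% of all genes. Against OKF6, 4 were called higher and 3 lower in SCC15, near the 26.9% and 23.4% of all genes, and 4 higher and 1 lower in SCC25, beside 18.9% and 11.3%. NLRC5, the transactivator of class I genes, had 46, 40 and 44 reads in SCC25, 4, 4 and 2 in OKF6 and 3, 0 and 1 in SCC15. Its levels separated SCC25 from both other lines, as HLA-B did (log2 change -5.22, SE 0.72, adjusted p = 0.000165 for SCC15 against SCC25, and 3.59, SE 0.72, adjusted p = 0.004 for SCC25 against OKF6, limma). IRF1, an activator induced by interferon gamma, was at 89.7, 115 and 82.5 CPM in SCC25, at 30.1, 18.7 and 17 CPM in OKF6 and at 16.4, 17.7 and 13.7 CPM in SCC15. Here too SCC25 stood above both others, and OKF6 and SCC15 overlapped (log2 change -2.57, SE 0.27, adjusted p = 2.06e-05 for SCC15 against SCC25, and 2.15, SE 0.27, adjusted p = 0.000224 for SCC25 against OKF6, limma). IRF2 and NFKB1 were lower in SCC15 than in SCC25 (log2 change -2.84 and -2.18) and than in OKF6 (-2.28 and -1.51). NFYC, a subunit of the factor that binds CCAAT, was higher than in OKF6 by 1.33 on the log2 scale in both SCC15 and SCC25, and CREB1 was lower than in OKF6 in both (-1.29 and -0.60).

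RFX5 and RFXAP, subunits of the complex that binds the X box of class I and class II promoters, went the other way. RFX5 was at 78.1, 54.5 and 61.4 CPM in SCC15, at 17.7, 21.1 and 17 CPM in SCC25 and at 32.0, 10.4 and 23.3 CPM in OKF6. It was higher in SCC15 than in SCC25 (log2 change 1.78, adjusted p = 0.00266, limma), and RFXAP was too (2.51, adjusted p = 0.0407, limma). Of the 3 class II genes with a row, 2 did not follow B2M either. HLA-DRB1 had 64, 33 and 27 reads in SCC15, 0, 4 and 0 in SCC25 and none in OKF6, and HLA-DQB1 had 97, 48 and 79 reads in SCC15, 0, 2 and 0 in SCC25 and 36, 56 and 18 in OKF6. Both were called higher in SCC15 than in SCC25 (adjusted p = 0.000614 and 6.88e-05, limma). CD74, the invariant chain, had a log2 change of -1.30 that was not called (adjusted p = 0.367, limma), and was named after its values were seen.

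**Figure D4:**
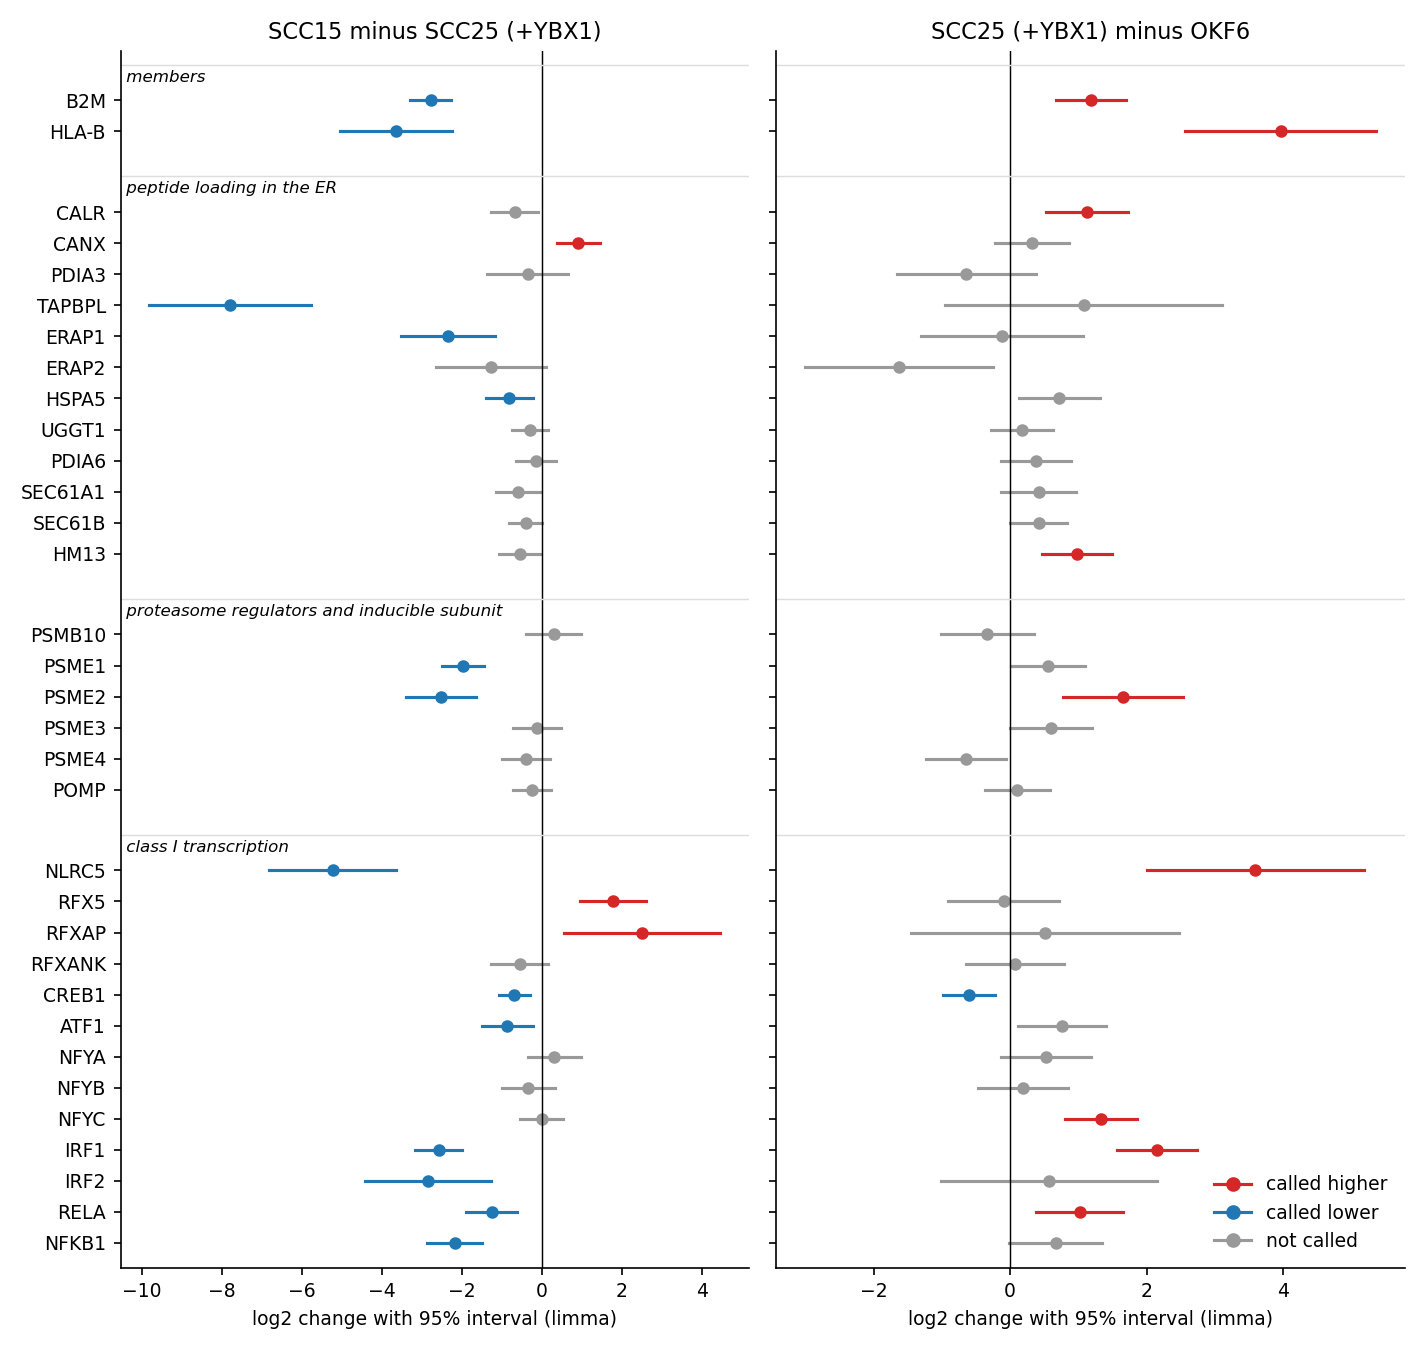
Log2 change with its 95% interval (x axis, limma) of HLA-B, B2M and 3 lists of class I pathway genes (y axis), for SCC15 minus SCC25 (left) and SCC25 minus OKF6 (right), coloured by the call at an adjusted p under 0.05. HLA-B, B2M, PSME2, NLRC5 and IRF1 are lower in SCC15 than in SCC25 and higher in SCC25 than in OKF6.

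Relatives of class I outside the members were divided. MR1, which shows vitamin metabolites to T cells, was lower in SCC15 than in SCC25 (log2 change -2.83, adjusted p = 0.000326, limma) and than in OKF6 (-2.85, adjusted p = 0.000238, limma). CD1D, which shows lipids, was lower in SCC15 as well (-2.86 against SCC25, adjusted p = 0.0177, limma). FCGRT, the heavy chain of the neonatal Fc receptor, also pairs with B2M. It was at 4.98, 1.58 and 1.01 CPM in OKF6, at 30.6, 23.4 and 26.3 CPM in SCC15 and at 53.6, 52.2 and 59.5 CPM in SCC25. FCGRT was higher than in OKF6 in SCC15 (log2 change 3.66, adjusted p = 8.97e-05, limma) and in SCC25 (4.71, adjusted p = 6.21e-05, limma), while B2M was lower in SCC15 than in OKF6.

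Most interferon receptor and signalling genes were lower in SCC15 than in SCC25. Of 12 receptor and signalling genes, 9 were called lower and none higher in SCC15 than in SCC25, with a median log2 change of -1.20, beside 23.6% of all genes called lower. Against OKF6, 6 of the 12 were called lower in SCC15 and 6 were not called, beside 23.4% of all genes called lower. IRF9, the DNA-binding part of the factor that type I interferon activates, was at 42.7, 50.6 and 22.9 CPM in SCC25, at 16.5, 16.2 and 11.8 CPM in OKF6 and at 1.46, 1.69 and 4.62 CPM in SCC15 (log2 change -3.97, adjusted p = 6.29e-05 for SCC15 against SCC25, limma). SOCS1, an inhibitor of the pathway, was lower in SCC15 by a log2 change of -5.34 (adjusted p = 0.000591, limma). Of 38 interferon-stimulated genes outside presentation, 35 were called lower in SCC15 than in SCC25 (median -5.10). OAS3, which makes the activator of RNase L, was at least 489-fold higher in SCC25, counted against a floor of 3 reads over the SCC15 group. Against OKF6, 31 of the 38 were called lower and 2 higher in SCC15, the latter IFITM2 and HERC5. In SCC25 9 were called higher than in OKF6, led by OASL (log2 change 4.82), CMPK2 (4.01) and GBP2 (3.97), and 2 lower, SAMD9 (-2.98) and MX1, which had 0 reads in SCC25 and was at least 131-fold higher in OKF6 against the same floor. Between SCC25 and OKF6 the shares of all genes were 18.9% higher and 11.3% lower, and 27 of the 38 were not called. The counts of 9 and 2 are near these shares and are not read as a result about the list. The part of the interferon-stimulated genes in the level of B2M and HLA-B was not tested.

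YBX1, the targeted gene, was lower in every -YBX1 library than in every +YBX1 library of its line. YBX1 was at 107, 79.0 and 97.9 CPM in SCC25 +YBX1 and at 38.3, 26.0 and 12.5 CPM in SCC25 -YBX1. It was at 34.4, 47.0 and 63.8 CPM in SCC15 +YBX1 and at 10.2, 13.0 and 8.67 CPM in SCC15 -YBX1. The groups did not overlap in either line, as was so for 7.31% of all genes in SCC25 and 7.04% in SCC15. The log2 change was -2.01 (SE 0.35) in SCC25 and -2.15 (SE 0.35) in SCC15, with adjusted p = 0.290 and 0.326 over all genes (limma), neither past the threshold. Of all genes 0% were called in either line and in the test of the difference between the lines, while 3.09%, 2.32% and 2.26% had an unadjusted p under 0.05. In OKF6 YBX1 was at 108, 285 and 330 CPM. Both +YBX1 groups were called lower than OKF6, beside 23.4% of all genes called lower in SCC15 and 11.3% in SCC25. The log2 change was -2.21 in SCC15 (adjusted p = 0.000707, limma) and -1.21 in SCC25 (adjusted p = 0.0375, limma). The part of the guide construct in this difference was not tested. These are RNA levels, and YBX1 protein was not analysed here.

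Neither matched member was called after knockdown. B2M was at 10.70, 11.19 and 10.41 log2 CPM in SCC25 -YBX1 and at 7.57, 7.76 and 7.88 log2 CPM in SCC15 -YBX1. Both groups overlapped their controls, and SCC25 -YBX1 replicate 2 was the highest of all 15 libraries. The log2 change was 0.30 in SCC25 (95% interval -0.12 to 0.72, adjusted p = 1.00, limma) and 0.04 in SCC15 (-0.38 to 0.46, adjusted p = 1.00, limma). The difference between the lines was 0.26 (-0.34 to 0.86).

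HLA-B had 12, 31 and 25 reads in SCC25 -YBX1, or 2.38, 6.01 and 4.81 CPM. Replicates 2 and 3 were above every control library, while replicate 1 lay among them. The log2 change was 0.95 (95% interval -0.27 to 2.16, unadjusted p = 0.117, adjusted p = 1.00, limma). The ratio of all reads, 68 against 32 scaled to library size, was 2.10 (1.36 to 3.30, counting error alone), an interval that does not hold the spread between replicates. In SCC15 -YBX1 there were 2, 3 and 1 reads, at or under 3 in each library as in the control, and no fold is given.

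Between same-numbered libraries, B2M changed by 0.36, 0.68 and -0.14 in SCC25 and by 0.08, 0.06 and -0.02 in SCC15 (log2). The corresponding values for HLA-B in SCC25 were -0.03, 1.56 and 1.31. PSME1 in SCC25 gave 0.20, 0.47 and -0.03. All 3 genes were furthest above their control in the second pair of SCC25. PSME2 gave 0.53, 0.08 and 0.01 in SCC25 and -0.26, -0.42 and -0.18 in SCC15, with log2 changes of 0.21 (95% interval -0.11 to 0.53) and -0.29 (-0.60 to 0.03) that were not called. Its groups did not overlap in either line, above the control in SCC25 and below it in SCC15. Groups lay apart for 7.31% of all genes in SCC25 and 7.04% in SCC15. As PSME2 was not called in either line, this is not read as an effect on it.

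The second pair of SCC25 is also where interferon-stimulated genes were furthest apart. The median log2 change of the 38 genes was 0.48, 1.33 and 0.20 in pairs 1 to 3 of SCC25, with 35, 38 and 24 genes positive, beside 0.03, -0.02 and -0.03 for all genes. Over the 3 pairs together 37 of the 38 genes had a positive change with a median of 0.59, and none was called. Without SCC25 -YBX1 replicate 2 the count was 23 of 38, the median 0.05, and the change of B2M 0.09 and of HLA-B 0.68. In that library the 10 genes with most reads took 16.2% of the reads, the largest share of the 15. It also stood apart in some keratinocyte and mesenchymal markers. KRT14 was at 4990 CPM beside 1083 and 906 CPM in the others of its group, and KRT5 at 7761 beside 2991 and 1856 CPM. VIM was at 372 beside 916 and 1082 CPM. KRT6A, CDH1, EPCAM, SFN and COL1A1 lay between the other libraries of the group, at 6130, 127, 34.5, 4454 and 31.0 CPM. In pair 2 the median log2 change was 0.28 over the 8 keratinocyte markers and -0.69 over the 5 mesenchymal markers. The part of this library's state in the values of B2M and HLA-B was not tested beyond leaving it out. In SCC15 the medians of the pairs were -0.08, -0.07 and -0.04.

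**Figure D5:**
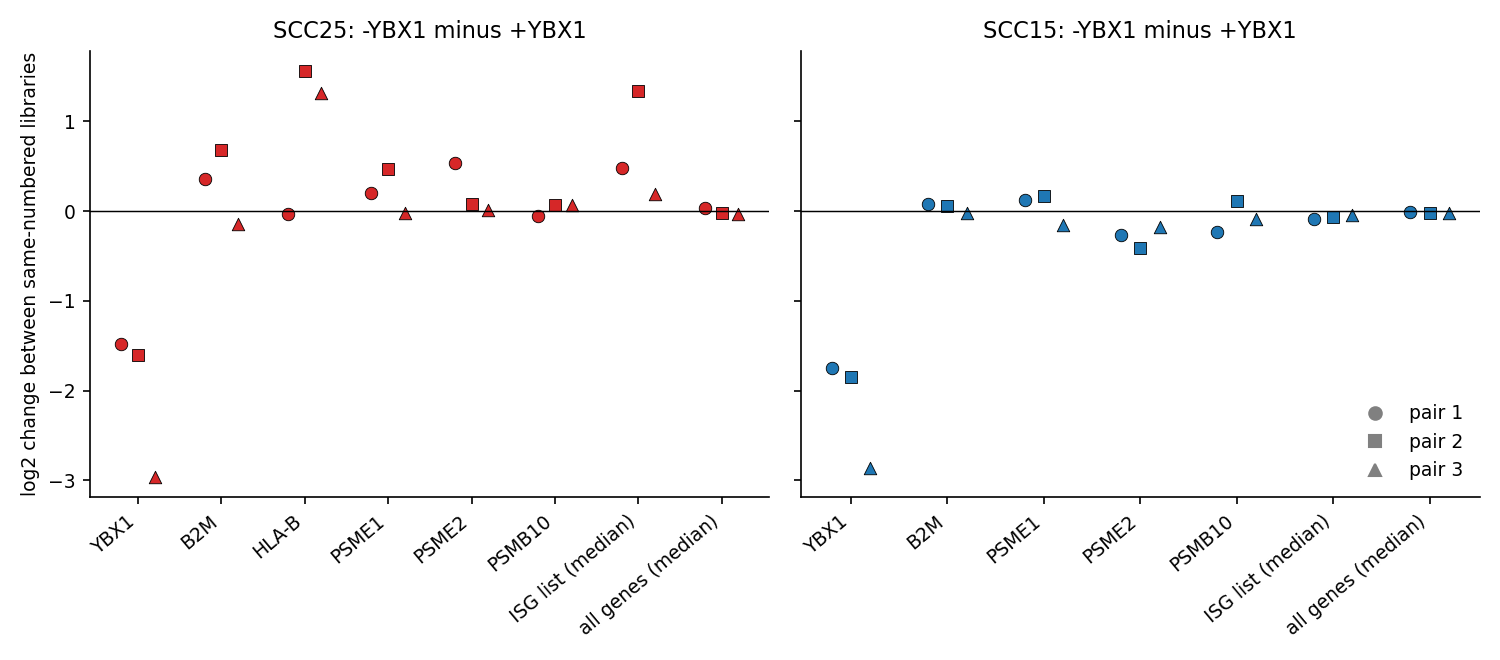
Log2 change between same-numbered -YBX1 and +YBX1 libraries (points, 3 pairs a line) of YBX1, members and proteasome genes, with the median of 38 interferon-stimulated genes (ISG list) and of all genes, in SCC25 (left) and SCC15 (right, HLA-B left out at 3 reads or fewer). YBX1 is below 0 in each pair, and B2M spans -0.14 to 0.68 in SCC25 and -0.02 to 0.08 in SCC15.

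None of the pathway lists held a gene called after knockdown. The median log2 change in SCC25 was 0.06 over the 12 loading genes, 0.03 over the 6 proteasome regulators, -0.03 over the 14 core subunits and 0.00 over the 13 transcription genes. In SCC15 the same medians were -0.02, -0.18, -0.05 and -0.10. NLRC5 had 58, 69 and 52 reads in SCC25 -YBX1, with a log2 change of 0.43 (95% interval -0.95 to 1.82), and IRF1 had a change of 0.22 (-0.35 to 0.79).

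The genes whose levels were most like those of the members over the 15 libraries are given as a description. The points are 5 groups of 3 libraries, so that likeness follows the lines above all. For the mean of HLA-B and B2M, each centred on its own mean, the closest were HKDC1, C16orf54, KLHDC9, KCNS1 and CNGB1 (Pearson r from 0.972 to 0.979, n = 15). With each gene centred on its group means, which leaves the spread between replicates, the closest to the mean of the members were PTPRS (r = 0.903), HPS3, GSTO2, NPNT and VPS39.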

How the data were processed

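RNA from 15 samples (5 groups of 3) was sequenced as 3′ end libraries in single 75-base reads. The authors used Cutadapt for trimming, HISAT2 with hg38 for alignment and featureCounts for counting, and deposited log2 CPM values made with limma, in a cell line table of 9 libraries and a YBX1 table of 12, of which 6 are shared. The versions of the aligner and the counter, the gene annotation, strand setting and contigs are not given in the sources used here, so reads of overlapping genes could be shared. The authors also filtered genes by expression with limma, by a rule that is not given there. All values came back as whole reads (100%, within 0.01 read).

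Groups came from the sample labels. Each table was fitted across its 12995 genes with limma 3.58.1 (R 4.3.3, lmFit and eBayes with trend), all groups of a table sharing one estimate of spread, without a replicate block. Calls used Benjamini-Hochberg adjusted p under 0.05. P-values measure the spread between these samples, which may be technical. The procedure was tested on simulated data. Reads were pooled over a group for counting intervals (exact, 95%). Transcript ends were mapped with minimap2 2.31, and figures drawn with Python 3.11.15.

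Members and lists were chosen with earlier results of these data known. Named genes were the members, YBX1, the genes of a ratio, the 5 genes most like the mean of the members, and in each list and comparison up to 3 called higher and 3 called lower with the largest changes. Exceptions are marked where they stand. Deviations of same-numbered libraries of a line correlated in the knockdown, by 0.135 to 0.470 in SCC25 and 0.117 to 0.498 in SCC15 (6497 genes). The numbers were taken to pair them there. Between lines the same correlations ran from -0.198 to 0.264, which overlaps the weaker pairs within a line. Differently numbered libraries of a line were not compared, so the pairing is an assumption. Alternatives covered scaling, filters, weights from recovered reads, the samples in the fit, the block, and leaving out each library.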

Additional observations from a re-analysis of the deposited data

Results flagged for a closer look

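The change of B2M against OKF6 differed between the cancer lines. B2M was below OKF6 in SCC15 and above it in SCC25, and the difference of these changes, tested as SCC15 against SCC25, was -2.77 on the log2 scale (adjusted p = 4.50e-06, limma). The corresponding difference for HLA-B was -3.64 (adjusted p = 0.000842, limma), on 2 reads in SCC15 and 32 in SCC25. HLA-B may have its row through SCC25 alone, so this value is not separate support. Line and culture medium cannot be told apart in either value.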

How the results depend on the processing

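Of the recomputed values, 207 of those without a library and 148 of those under another setting were the same as in the main fit. For the change of a gene this meant its direction and side of the threshold. For a count of members called it meant the same number. For the level of PSMB10 relative to PSMB7 it meant a shift smaller than the larger SD of the groups compared. With genes above the first quartile of level alone, HLA-B was not tested, so 1 member in place of 2 was called in SCC15 against SCC25 and 1 in SCC25 against OKF6. The change of B2M in SCC15 after knockdown turned to -0.066 without SCC15 +YBX1 replicate 1 and to -0.034 without SCC15 -YBX1 replicate 3, in a range from -0.066 to 0.14 over the libraries left out. Without SCC25 -YBX1 replicate 3, YBX1 passed in SCC15 (-2.15, adjusted p = 0.0202, limma). Over all genes, where none was called in the knockdowns, 6 were called in SCC25 without SCC25 -YBX1 replicate 2 and 1 in SCC15 without SCC25 -YBX1 replicate 3. Leaving out a library, B2M ranged from -2.88 to -2.67 in SCC15 against SCC25 and from 0.09 to 0.48 in the SCC25 knockdown, and HLA-B from 0.68 to 1.33 in the latter. Equal library medians moved the median change of all genes in SCC15 against SCC25 from -0.01 to 0.14, and in SCC15 against OKF6 from 0.10 to 0.26, and quantile normalization moved it in SCC25 against OKF6 from 0.13 to -0.05. B2M and HLA-B kept their calls under both, with HLA-B at 2.73 for SCC25 against OKF6 under the latter. The lists were not recomputed under them. With the replicate block, B2M in SCC15 against SCC25 was -2.77 (adjusted p = 3.95e-05, limma), and in SCC25 after knockdown B2M was 0.30 and HLA-B 0.95 (adjusted p = 1.00 for both, limma). A replicate block within each line, chosen after seeing the data, gave the same changes with adjusted p = 0.959 and 0.985 (limma). Neither block changed a call of a member. The ratios of PSMB8 to PSMB5 and of PSMB9 to PSMB6 were not run. Depth limits HLA-B in OKF6 and SCC15, where no library had more than 3 reads.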
